A study of Gallus gallus with 9 samples.

Results

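The cytoplasmic ribosomal protein genes are 69 of the 14073 genes of the chick embryo (Gallus gallus) that had a symbol and an entry in the RNA-seq files. They were chosen by name: a symbol that starts with RPL or RPS followed by a digit, or that is RPLP0, RPLP1, RPLP2 or RPSA, without the ribosomal protein S6 kinases and without symbols ending in L1. By name, 41 of them belong to the large subunit and 27 to the small subunit. The remaining symbol, RPS19BP1, names a protein that binds the ribosomal protein RPS19 and is not a part of the ribosome. RPSA, RPS19 and RPL10 had no entry under those symbols and were not analysed here. RPS4X had no entry under that symbol either, but RPS4Y1, a gene of the same name family, was among the members.

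The libraries, 3 from each of 3 tissues, were made from neural crest around the eye at embryonic day 3 (E3), from the endothelium of the cornea at E5, and from corneal endothelium isolated with keratocytes at E7. This neural crest gives rise to the endothelium, the cell layer on the inner face of the cornea, and to keratocytes, which are the stromal fibroblasts. The labels name no strain, genotype or treatment. They do not tell separate embryos from repeat samples of 1 pool, so p-values measure only the spread among these libraries, and that spread may be technical. The question addressed to the ribosomal protein genes was how closely they moved together over the 9 libraries, and which single members were out of step.

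A ribosome is built from a small subunit, which reads the messenger RNA, and a large subunit, which joins amino acids, and each subunit holds many proteins mostly in equal numbers. Cells tend to express the genes of these proteins together, through regulators of growth and through a tract of pyrimidines at the start of their messenger RNAs that couples their translation to growth signals. Mutations in single members cause Diamond-Blackfan anaemia in humans, and loss of a copy of Rpl38 disturbs the axial skeleton in the mouse. New ribosomes are put together in the nucleolus by a separate set of assembly proteins, which do not stay in the finished ribosome.

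The libraries held 18405559 to 22055958 expected counts at E3, 18815844 to 23205388 at E5 and 9874339 to 13740392 at E7. Every E7 library was thus shallower than every other library, so depth differed along with the group. In addition, 1 library of each corneal group lay nearer to the other group. Across genes, which are not independent replicates, E7 library 3 correlated at 0.985 and 0.981 with E5 libraries 1 and 2 on log2(CPM + 1), where CPM are counts scaled by library size, and at 0.926 and 0.937 with E7 libraries 1 and 2. E5 library 3 correlated at 0.975 and 0.981 with E7 libraries 1 and 2, and at 0.941 and 0.948 with E5 libraries 1 and 2. The summed level of 9 measured keratocyte and stroma markers was 1861 to 2131 CPM at E3. It was 39527, 33111 and 11308 CPM in the E5 libraries and 13973, 10836 and 39521 CPM in the E7 libraries. The libraries labelled corneal endothelium thus carried stromal markers as well. By this sum E5 libraries 1 and 2 held more of them than E7 libraries 1 and 2, although only the E7 label names keratocytes. Among these markers ALDH1A2 alone went the other way. It stood at 210 and 276 FPKM in E5 libraries 1 and 2 and at 553 and 488 FPKM in E7 libraries 1 and 2. The corneal endothelium markers summed to 1166 to 1239 CPM at E3, 3267 to 4603 CPM at E5 and 3418 to 4040 CPM at E7. Erythroid markers summed to 2892 to 3369 CPM at E3, 7.23 to 52.7 CPM at E5 and 12.4 to 198 CPM at E7, with none of the 10 measured genes at 0 in every library. Because E5 library 3 and E7 library 3 lay nearer to the other corneal group, both groups together were also compared with E3. Results are given with and without E5 library 3 and E7 library 3. Leaving both out kept E5 libraries 1 and 2 and E7 libraries 1 and 2, whose stromal marker sums ran against their labels.

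Ribosomal protein transcripts made up a similar share of every library. The summed share of the 69 genes was 4.79, 4.81 and 4.85% of all counts in the E3 libraries. It was 4.33, 4.19 and 4.23% in the E5 libraries and 4.87, 4.92 and 4.18% in the E7 libraries. The E3 and E5 shares did not overlap, and the E7 shares lay on both sides of the E3 range, with E7 library 3 beside the E5 libraries. The ratio of the corneal mean to the E3 mean was 0.925 by this share and 0.931 by summed FPKM, fragment numbers scaled by transcript length and library depth. With TMM factors, which scale libraries so that most genes keep their level, the ratio was 1.031, so whether the set was lower or higher in the cornea turned with the scaling. In such bulk samples fewer cells of a type and less RNA per cell cannot be told apart. The 41 large subunit members held 1.293 to 1.342 times the summed FPKM of the 27 small subunit members, a ratio that also reflects the unequal gene numbers. It was 1.331, 1.340 and 1.342 at E3, 1.327, 1.293 and 1.314 at E5, and 1.301, 1.294 and 1.308 at E7. Every corneal ratio lay below every E3 ratio, and no test of this was made.

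**Figure D1:**
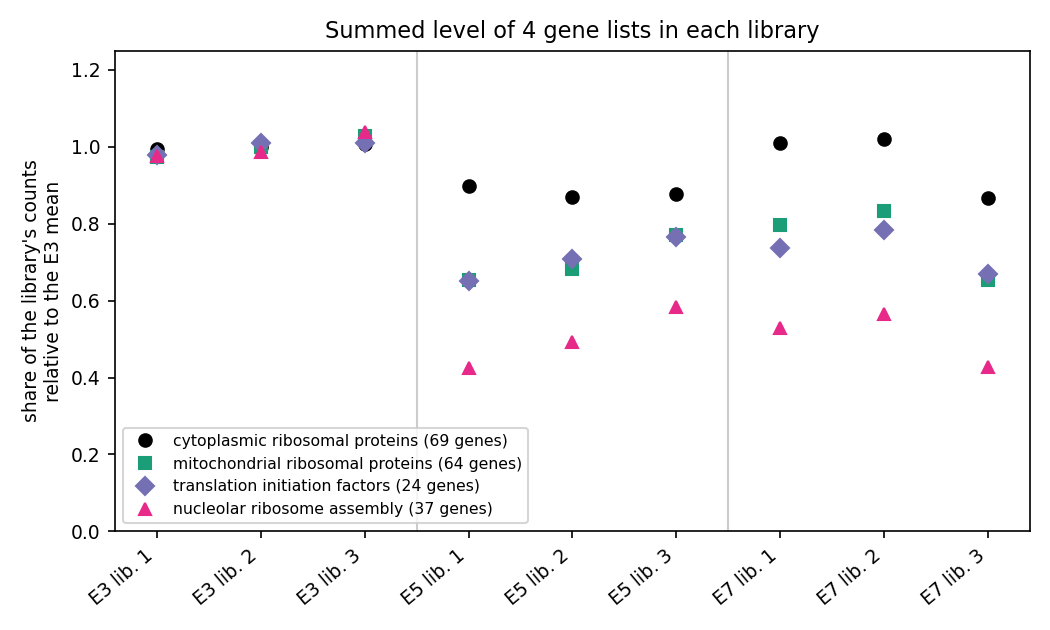
Summed level of 4 gene lists in each library (horizontal axis), as a share of the library's counts divided by the mean share of the E3 libraries (vertical axis). The 69 ribosomal protein genes (circles) stayed near the E3 level, with a corneal to E3 ratio of 0.925 by this share and 1.031 with TMM factors, while nucleolar assembly genes (triangles) summed to 4491 to 6178 CPM in the corneal libraries against 10312 to 10979 CPM at E3.

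Levels of single members differed widely from gene to gene and little from library to library. The median member stood at 1064, 1073 and 1093 FPKM in the E3 libraries, at 1011, 940 and 937 FPKM at E5 and at 1117, 1133 and 972 FPKM at E7. RPS2, near the entry of the messenger RNA channel, stood at 1706 to 2196 FPKM in the corneal libraries and 2176 ± 147 FPKM at E3 (mean ± SD, n = 3). RPS6, the substrate of the S6 kinases, stood at 1684 to 2282 FPKM in the corneal libraries and 2024 ± 229 FPKM at E3. With RPS12, RPLP1 and RPS3A they were the 5 members with the highest mean FPKM. The lowest were RPL3L, RPS27L, RPS19BP1, RPL35A and RPL7. RPL3L, which in mammals replaces RPL3 in striated muscle, had at most 0.67 FPKM in any library and did not pass the filter on low counts. The other 68 members were tested among 11719 genes.

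The spread of a member over the 9 libraries, as the SD of its log2 level on CPM with TMM factors, had a median of 0.107 over the 68 members. The median was 0.317 over all genes tested and 0.228 over the 64 mitochondrial ribosomal proteins, which serve the separate ribosome of mitochondria. The spread was under 0.2 in 59 members (86.8%), in 24.9% of all genes and in 26 mitochondrial ribosomal protein genes (40.6%). Within groups the median SD was 0.092 for members and 0.216 for all genes. Spread falls with the number of counts, and most members stood far above the typical gene in level, so these values are a description and not a test.

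With TMM factors and all 9 libraries, few members were called between neural crest and cornea, and the called changes were small. In the comparison of both corneal groups with E3, 5 of 68 members were higher and 1 lower at an adjusted p under 0.05 (edgeR quasi-likelihood F-test, Benjamini-Hochberg adjustment over all genes tested, as for every adjusted p unless another tool is named). That is 8.82% of the members, where 41.7% of all 11719 genes were called, 20.9% higher and 20.8% lower. The members' median log2 fold change was 0.03, as it was over all genes, and the SE of a member had a median of 0.07. The estimate lay within 0.5 on the log2 scale in 67 members (98.5%) against 54.7% of all genes. The whole 95% interval lay within 0.5 in 57 members (83.8%) against 22.6% of all genes. At an unadjusted p under 0.05 there were 12 of 68 members, beside 5916 of the 11719 genes. On CPM with TMM factors the corneal libraries did not overlap with the E3 libraries in 12 members, 8 of them higher and 4 lower, beside 44.4% of all genes, 21.7% higher and 22.7% lower.

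The counts moved with the scaling and with the omission of E5 library 3 and E7 library 3. Scaled by library size alone, 2 members were higher and 15 lower. That is 25% of the members, beside 44.7% of all genes called (16.3% higher, 28.4% lower). The median of all genes moved from 0.03 to -0.13 and 36.4% of the all-gene calls were higher, against 50.1% with TMM factors. Without E5 library 3 and E7 library 3, 18 members were higher and 2 lower. That is 29.4% of the members, where 52.1% of all genes were called (26.3% higher, 25.8% lower). Of these member calls 90% were higher, against 50.5% of the all-gene calls, so the members' share higher was close to that of all genes. DESeq2 gave 9 members higher and 4 lower, where it called 47.7% of all genes (24.3% higher, 23.3% lower). Without E7 library 3 alone there were 9 and 2, beside 41.5% of all genes (20.9% higher, 20.6% lower). Without E3 library 1, 2 or 3 there were 2 and 0 in each case, where the calls over all genes were 29.8, 28.4 and 28.8%. Without E7 library 1 there were 4 and 2, beside 38.3% (19.2% higher, 19.1% lower).

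**Figure D2:**
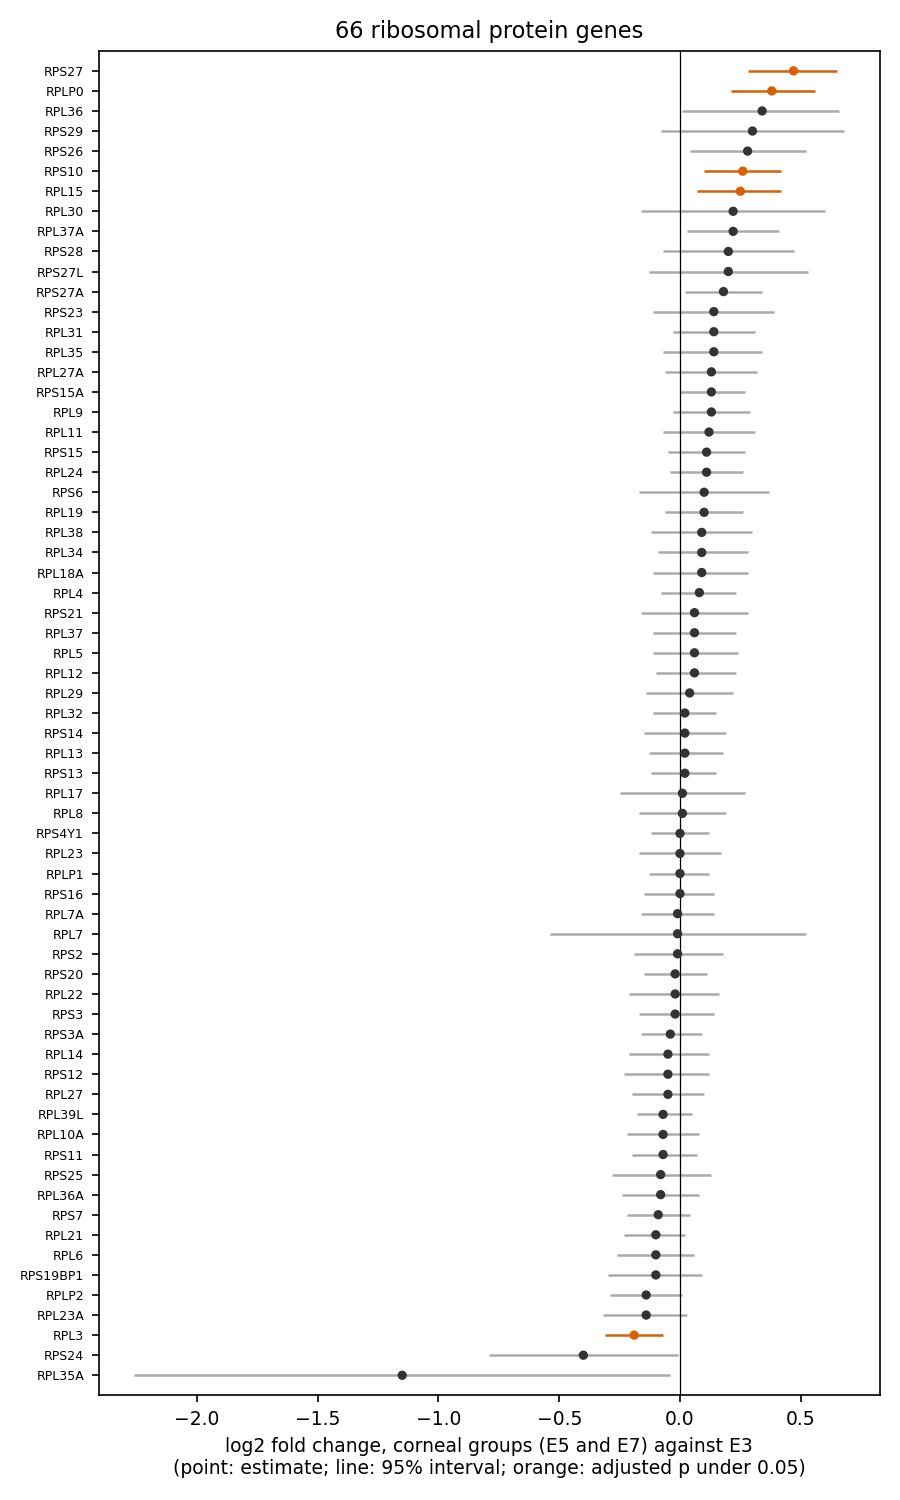
Log2 fold change of both corneal groups against E3 (horizontal axis) for 66 of the tested members (rows), with 95% intervals from edgeR as lines. The 5 members in orange passed an adjusted p of 0.05, and 65 of the 66 estimates lay within 0.5 of zero, the exception being RPL35A at -1.15.

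Among members of the small subunit, RPS27 rose in the cornea. RPS27, a zinc-finger protein of the small subunit, stood at 777, 764 and 859 FPKM in the E3 libraries, at 1024, 930 and 901 FPKM at E5 and at 1069, 1061 and 972 FPKM at E7. Every corneal library lay above every E3 library. The log2 fold change of both corneal groups against E3 was 0.47 ± 0.08 (estimate ± SE, adjusted p = 0.00262). It was 0.43 ± 0.09 at E5 (adjusted p = 0.00828) and 0.50 ± 0.09 at E7 (adjusted p = 0.00443), comparisons that share the E3 libraries. RPS27 was called in all 18 alternatives of each of these comparisons, with values for both groups together of 0.31 to 0.53.

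RPS27L, its close paralogue, stood at 29.7, 25.6 and 26.8 FPKM at E3, at 30.9, 27.2 and 25.5 FPKM at E5 and at 25.6, 27.3 and 32.6 FPKM at E7, so the groups overlapped. Its log2 fold change was 0.20 with a 95% interval of -0.13 to 0.53 (adjusted p = 0.293). Near-identical stretches of such paralogues can share reads, and how those were divided is not given in the sources used here. RPS27A, made as a fusion with ubiquitin, stood at 943, 975 and 1046 FPKM at E3 and at 927 to 1125 FPKM in the corneal libraries, with a log2 fold change of 0.18 (95% interval 0.02 to 0.34, adjusted p = 0.0732). The ratio of RPS27 to RPS27A in FPKM was 0.78 to 0.82 at E3 and 0.91 to 1.05 in the cornea. This ratio does not depend on the scaling of the libraries, and it was chosen after the values were seen.

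RPS10, a member of the small subunit whose human gene is mutated in Diamond-Blackfan anaemia, was higher with TMM factors. It stood at 1343, 1351 and 1333 FPKM at E3, at 1440, 1305 and 1283 FPKM at E5 and at 1610, 1600 and 1426 FPKM at E7. On FPKM the E7 libraries lay above E3 and the E5 libraries on both sides of it. Its log2 fold change was 0.26 ± 0.07 for both corneal groups (adjusted p = 0.0199) and 0.34 ± 0.08 for E7 alone (adjusted p = 0.0146). Scaled by library size alone, these were 0.10 (adjusted p = 0.276) and 0.20 (adjusted p = 0.0836). Without E3 library 1, 2 or 3 the adjusted p for both groups was 0.0743, 0.0637 and 0.0757. The calls held in 13 of 18 alternatives for both groups and in 14 of 18 at E7. At E5 alone it did not pass, with 0.18 (adjusted p = 0.118).

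In the large subunit, the stalk protein RPLP0 rose, while its partners did not pass the test with TMM factors. The stalk, a flexible arm that recruits elongation factors, holds RPLP0 at its base and RPLP1 and RPLP2 bound to it. RPLP0 stood at 952, 903 and 1014 FPKM at E3, at 1134, 987 and 1135 FPKM at E5 and at 1113, 1243 and 1110 FPKM at E7. On FPKM only E5 library 2 fell within the E3 range, and with TMM factors no corneal library did. Its log2 fold change was 0.38 ± 0.08 for both corneal groups (adjusted p = 0.00482), 0.36 ± 0.09 at E5 (adjusted p = 0.0139) and 0.41 ± 0.09 at E7 (adjusted p = 0.00863). The calls for E7 and for both groups held in all 18 alternatives. That for E5 held in 14 of 18. It was lost by library size alone (0.18, adjusted p = 0.15), with limma on log2(FPKM + 1) (0.18, adjusted p = 0.134) and without E3 library 1 or 2, at 0.0564 and 0.0646.

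RPLP1 stood at 1982, 1956 and 2029 FPKM at E3 and at 1663 to 1911 FPKM in the cornea. With TMM factors the 95% interval of its log2 fold change was -0.13 to 0.12. RPLP2 stood at 1146, 1147 and 1203 FPKM at E3 and at 846 to 1043 FPKM in the cornea, a log2 fold change of -0.14 with TMM factors (95% interval -0.29 to 0.01, adjusted p = 0.128). It was called lower in 2 of 18 alternatives, at -0.29 by library size alone (adjusted p = 0.0224) and at -0.29 with limma on log2(FPKM + 1) (adjusted p = 0.0189). The corneal libraries were lower in FPKM for both partners, and overlapped with E3 once scaled by TMM. The ratio of RPLP0 to RPLP1 was 0.46 to 0.50 at E3 and 0.58 to 0.70 in the cornea. That of RPLP0 to RPLP2 was 0.79 to 0.84 and 0.99 to 1.31. These ratios were also chosen after the values were seen.

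RPL3, which lies close to the centre where peptide bonds form, was the only member called lower with TMM factors in the comparisons with E3. It stood at 1377, 1330 and 1382 FPKM at E3, at 1011, 1056 and 1110 FPKM at E5 and at 1103, 1138 and 1011 FPKM at E7. Every corneal library lay below every E3 library. The log2 fold change was -0.19 ± 0.05 for both corneal groups (adjusted p = 0.018), -0.19 ± 0.06 at E5 (adjusted p = 0.04) and -0.19 ± 0.06 at E7 (adjusted p = 0.0366). Its size depended on the scaling and reached -0.35 under the alternatives for both groups. That call held in 14 of 18 alternatives, and was lost without E3 library 1, 2 or 3, at 0.0727, 0.0579 and 0.092, and under a replicate block, at 0.0519. The call at E5 held in 7 of 18 and that at E7 in 9 of 18, with adjusted p-values up to 0.142 and 0.132. At E5 it was lost on omitting any single library but E7 library 3, and at E7 on omitting any but E5 library 1 or 3. The ratio of RPS27 to RPL3 in FPKM was 0.56, 0.57 and 0.62 at E3 and 0.81 to 1.01 in the cornea. That of RPLP0 to RPL3 was 0.68 to 0.73 and 0.93 to 1.12. Both set a member called higher over the member called lower and were chosen after the values were seen, so they add no separate support.

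RPL15, a large subunit protein, stood at 1012, 1025 and 1107 FPKM at E3, at 1129, 1069 and 1046 FPKM at E5 and at 1209, 1264 and 1025 FPKM at E7. The groups overlapped on FPKM and did not with TMM factors. The log2 fold change was 0.25 ± 0.08 for both corneal groups (adjusted p = 0.0313) and 0.28 ± 0.09 at E7 (adjusted p = 0.0391). The call for both groups was lost in 10 of 18 alternatives. Among them were the omission of any E3 library, of E5 library 1 or 2, or of E7 library 1 or 2, at adjusted p-values of 0.0506 to 0.128, and library size alone, where the value was 0.09 (adjusted p = 0.398). The call at E7 held in 7 of 18, with adjusted p-values up to 0.258. Omitting E5 library 2, E7 library 1 or 2, or any of the E3 libraries ended it.

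**Figure D3:**
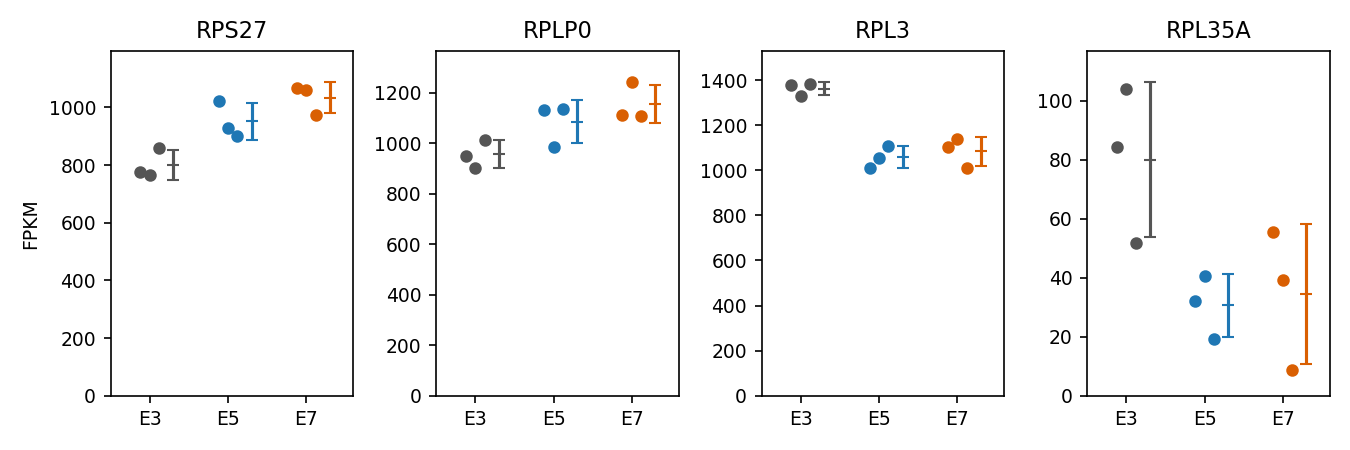
FPKM (vertical axis) of RPS27, RPLP0, RPL3 and RPL35A in each library of the 3 groups (points), with the mean and SD of each group beside the points. RPS27 at 901 to 1069 FPKM in the corneal libraries lay above the E3 libraries at 764 to 859 FPKM, and RPL3 at 1011 to 1138 FPKM lay below the E3 libraries at 1330 to 1382 FPKM.

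To ask which members changed relative to the other ribosomal protein genes, scaling factors were also taken over the members alone. Against the set, RPS27 (0.43 ± 0.07, adjusted p = 0.00263), RPLP0 (0.35 ± 0.08, adjusted p = 0.0116), RPS10 (0.22 ± 0.06, adjusted p = 0.0242) and RPL15 (0.21 ± 0.06, adjusted p = 0.0306) were higher in both corneal groups together. RPL3 (-0.23 ± 0.07, adjusted p = 0.0269) and RPL23A, a protein at the tunnel exit (-0.19 ± 0.06, adjusted p = 0.0388), were lower. With 1 more member higher, these 7 calls stand beside 39.6% of all genes called with these factors, 18.5% higher and 21.1% lower. At E5, RPS27 (0.44), RPLP0 (0.37) and RPL15 (0.23) were higher and RPL23A (-0.22) lower than the set, beside 32.2% of all genes (17.2% higher, 15% lower). At E7, RPS27 (0.42), RPLP0 (0.32), RPS10 (0.25) and 1 more member were higher and RPL3 (-0.28) lower, beside 32.7% (14% higher, 18.7% lower). In FPKM, RPL23A stood at 1015, 1000 and 1015 at E3 and at 735 to 961 in the cornea. RPL23A was not called with TMM factors (-0.14, 95% interval -0.32 to 0.03, adjusted p = 0.169).

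In the separate comparison of E5 with E3, RPLP0 and RPS27 were higher and RPL3 lower, 4.41% of the members where 36.1% of all genes were called (18.5% higher, 17.6% lower). Of all genes called, 51.1% were higher with TMM factors and 35.8% by library size alone, where the median of all genes was -0.14 in place of 0.03. By library size alone 1 member was higher and 20 lower. That is 30.9% of the members, beside 39.3% of all genes (14.1% higher, 25.2% lower). Of these member calls only 4.76% were higher, so the members' share lower exceeded that of all genes. DESeq2 gave 2 and 4, beside 42.8% (21.5% higher, 21.3% lower). Without E5 library 3 and E7 library 3, 7 were higher and 3 lower, beside 50% (25.7% higher, 24.4% lower). The higher count was 1 without E3 library 1 or 2, beside 12.7 and 12% of all genes, and 4 without E5 library 3, beside 19.6%. The lower count was 0 without any 1 of E3 libraries 1 to 3, E5 libraries 1 to 3 or E7 libraries 1 and 2, beside 11.2 to 19.2% of all genes, and 3 without E7 library 3, beside 19.3%.

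At E7 against E3, 5 members, among them RPS27, RPLP0, RPS10 and RPL15, were higher and RPL3 lower, 8.82% of the members where 33.7% of all genes were called (17.3% higher, 16.4% lower). The all-gene calls were 51.3% higher with TMM factors and 38.7% by library size alone, which gave 2 members higher and 4 lower beside 35.8% of all genes (13.8% higher, 22% lower). DESeq2 gave 12 and 3, beside 40.3% (20.8% higher, 19.5% lower). Without E5 library 3 and E7 library 3, 20 members were higher and 1 lower. That is 30.9% of the members, beside 42.6% of all genes (21.6% higher, 21% lower). Of these member calls 95.2% were higher, against 50.7% of the all-gene calls, so the members' share higher exceeded that of all genes. The higher count was 2, 3 and 3 without E3 library 1, 2 or 3, beside 11.7, 11.2 and 11.4% of all genes. It was 9 without E5 library 1, beside 16.4%, and 10 without E7 library 3, beside 16.1%. The lower count was 0 without any E3 library, without E5 library 2 or without E7 library 2 or 3, beside 10.5 to 15.4% of all genes. Libraries of the groups did not overlap in 30 members (44.1%) on CPM with TMM factors, beside 53.4% of all genes. Of the 68 members 25 were higher in this way (36.8%), above the 26.6% of all genes, where 26.8% were lower. At E5 against E3 the libraries did not overlap in 23 members (33.8%), beside 54.4% of all genes. There 9 members were higher (13.2%), beside 27% of all genes higher and 27.5% lower. Both comparisons use the same E3 libraries.

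Between E7 and E5, edgeR called 0 of 68 members and 0 of all genes (0% called), with 4 members and 281 genes at an unadjusted p under 0.05. DESeq2 called 0 members and 11 genes in all (0.0939%, with 0.0427% higher and 0.0512% lower). At an unadjusted p under 0.05 DESeq2 had 12 members and 387 of all genes. The members' median log2 fold change was 0.09, with estimates from -0.20 to 0.33, and the whole 95% interval lay within 0.5 in 61 members (89.7%) against 40.2% of all genes. Without E5 library 3 and E7 library 3, 1 member was higher, where 22.8% of all genes were called (11.3% higher, 11.5% lower). Libraries of E7 and E5 did not overlap in 3 members, 2 of them higher, beside 4.98% of all genes (2.39% higher, 2.59% lower).

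Members out of step were ranked by the SD over the 9 libraries of a member's log2 level after the median of the members in each library had been taken off. RPL35A, a large subunit protein whose human gene is mutated in Diamond-Blackfan anaemia, came first with an SD of 0.966. It stood at 84.3, 104 and 51.8 FPKM at E3, at 32.1, 40.6 and 19.3 FPKM at E5 and at 55.4, 39.3 and 8.56 FPKM at E7. E7 library 1 lay within the E3 range, and E7 library 3 was lowest of all with 76 counts. The log2 fold change of both corneal groups was -1.15 with a 95% interval of -2.26 to -0.04 (adjusted p = 0.0893). Under the alternatives it ran from -1.42 to -0.80 and passed in 4 of 18, among them without E5 library 3 and E7 library 3 (-0.80, adjusted p = 0.0289), without E7 library 3 alone (-0.93, adjusted p = 0.0464) and with DESeq2 (-1.16, adjusted p = 0.041).

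RPS24, a small subunit protein, came next at 0.339. Its levels were 297, 214 and 239 FPKM at E3, 149, 191 and 186 FPKM at E5 and 222, 148 and 128 FPKM at E7. Only E7 library 1 lay within the E3 range. The log2 fold change was -0.40 with a 95% interval of -0.79 to -0.01 (adjusted p = 0.0944, and 0.0152 without E7 library 1). RPL7, a large subunit protein, followed at 0.302, and its libraries scattered within the corneal groups and not between them and E3. It stood at 146, 162 and 147 FPKM at E3, at 154, 83.6 and 118 FPKM at E5 and at 154, 208 and 102 FPKM at E7, a log2 fold change of -0.01 (95% interval -0.54 to 0.52).

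RPL30 and RPS29 followed with SDs of 0.242 and 0.233, then RPS27 with 0.223 and RPL36 with 0.198. RPL30, which in yeast binds and regulates its own transcript, stood at 212 to 248 FPKM at E3 and at 152 to 275 FPKM in the cornea, with E7 library 3 lowest. RPS29, a small zinc-binding protein, stood at 869 to 915 FPKM at E3 and at 1144, 747 and 733 FPKM at E5 and 1132, 1280 and 952 FPKM at E7, so that E5 libraries 2 and 3 lay below E3 and the others above. RPL36 stood at 370, 404 and 424 FPKM at E3 and at 374 to 594 FPKM in the cornea, a log2 fold change of 0.34 (95% interval 0.01 to 0.66, adjusted p = 0.0871). Without E5 library 3 and E7 library 3 the adjusted p was 0.0422 for RPL30, 0.0491 for RPS29 and 0.0152 for RPL36. RPLP0, RPS27L and RPS6 completed the first 10. The SD within groups was 0.075 for RPS27, 0.817 for RPL35A and 0.326 for RPL7.

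RPL35A, RPL7, RPS24 and RPL30 also stood far below the median member of about 1000 FPKM. Entries without a matched gene name held 21.5 to 23.6% of the counts and may hold further transcripts of these genes; their part in the low and scattered values was not tested. Among the members closest in step were RPS16, RPL32 and RPL7A, with SDs of 0.034, 0.034 and 0.042. RPL7A stood at 1650, 1664 and 1645 FPKM at E3, at 1417, 1320 and 1367 FPKM at E5 and at 1685, 1691 and 1396 FPKM at E7, lowest in E5 libraries 2 and 3 and E7 library 3, as the median member was.

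**Figure D4:**
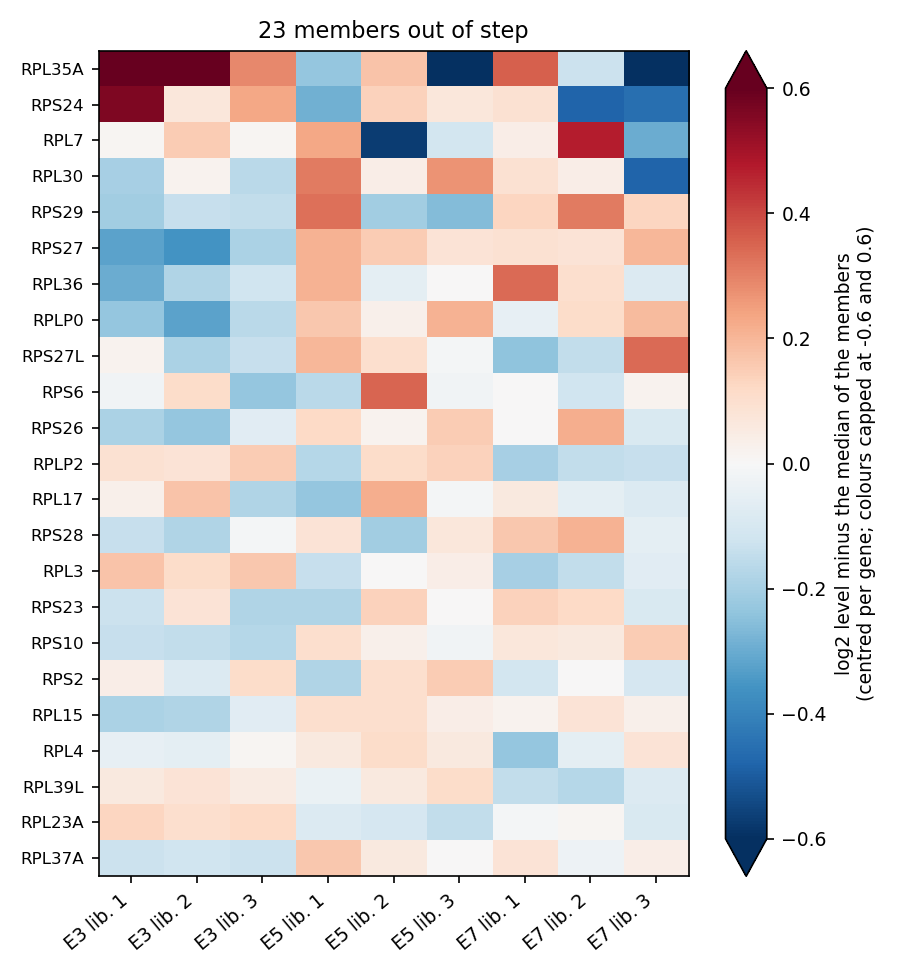
Deviation of 23 members out of step (rows) in each library (columns), as the log2 level minus the members' median in that library, centred per gene, with colours capped at -0.6 and 0.6. RPS27 and RPLP0 were low in all 3 E3 libraries, at -0.36 to -0.16, while RPL35A, with an SD of 0.966, and RPL7 scattered within groups.

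Other members with known roles did not pass the test for both corneal groups. RPL5 and RPL11, which bind the p53 regulator MDM2 when ribosome assembly is disturbed, had log2 fold changes of 0.06 (95% interval -0.11 to 0.24) and 0.12 (-0.07 to 0.31). RPL38 stood at 872, 870 and 860 FPKM at E3 and at 711 to 993 FPKM in the cornea, with 0.09 (-0.12 to 0.30). RPL22 stood at 684, 671 and 715 FPKM at E3 and at 525 to 726 FPKM in the cornea, with -0.02 (-0.21 to 0.16). RPS26 stood at 616, 605 and 679 FPKM at E3 and at 577 to 848 FPKM in the cornea, with 0.28 (0.04 to 0.52, adjusted p = 0.0608, and 0.0127 without E5 library 3 and E7 library 3). RPS6 had 0.10 (-0.17 to 0.37). RPS19BP1 stood at 39.4, 40.3 and 42.0 FPKM at E3 and at 30.0 to 40.7 FPKM in the cornea, with -0.10 (-0.30 to 0.09).

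In 11 members the files gave 2 to 4 entries of the same gene, and the estimated division of a gene's counts between them differed between groups in some. In RPS14, a small subunit protein whose loss in humans accompanies the 5q- syndrome, the entry of 800 bases took 21.4, 21.8 and 22.4% of the gene's counts at E3. It took 10.8, 13.5 and 14.6% at E5 and 10.9, 15 and 10.6% at E7, so the groups did not overlap. The entry of 677 bases took 47.2 to 47.8% at E3 and 52.9 to 61.3% in the cornea. The gene as a whole had a log2 fold change of 0.02.

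Minor entries of 3 further genes were lower in every corneal library. The entry of 1014 bases of RPS7 took 2.82, 3.93 and 3.26% of that gene at E3 and 0.972 to 2.25% in the cornea. The entry of 1304 bases of RPL15 took 3.27, 3.54 and 3.88% at E3 and 2.13 to 2.72% in the cornea. The entry of 861 bases of RPS15A took 1.62 to 1.65% at E3 and 0.692 to 1.5% in the cornea, and that of 718 bases of RPL17 touched at 1.32% between E3 library 1 and E7 library 2. These shares are estimates over entries that overlap in sequence, and no test of them was made. How often such differences occur in other genes with 2 or more entries was not counted, so they are not shown to be particular to the members.

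**Figure D5:**
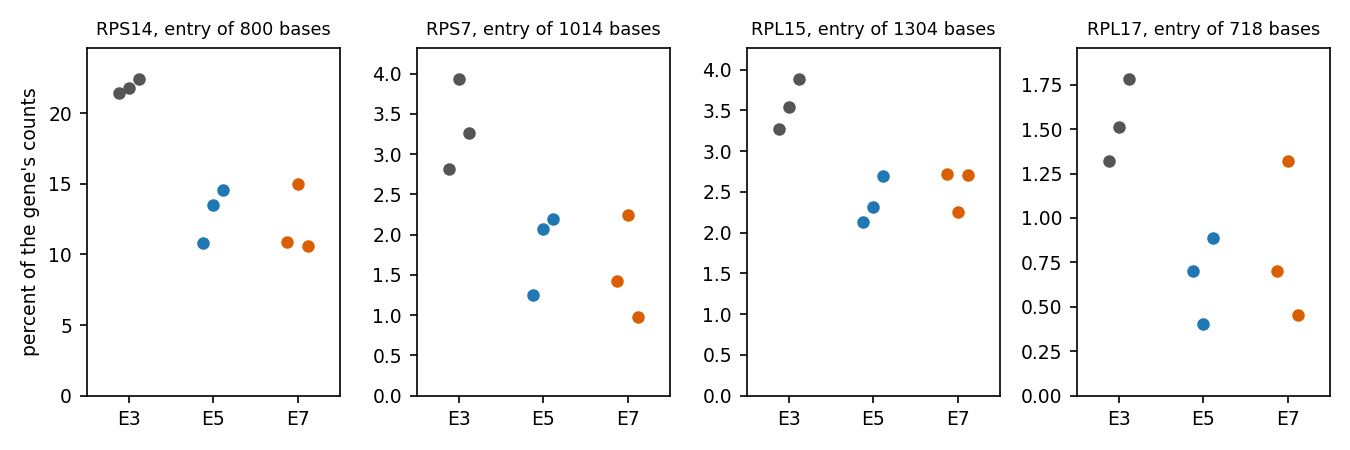
Share of a gene's counts (percent, vertical axis) given to a minor entry of RPS14, RPS7, RPL15 and RPL17 in each library of the 3 groups (points). The share of the RPS14 entry of 800 bases lay at 21.4 to 22.4% at E3 and at 10.6 to 15% in the corneal libraries.

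A protein of the ribosome without an RPL or RPS symbol was higher with TMM factors in both corneal groups together. RACK1, a scaffold on the small subunit, stood at 866, 797 and 906 FPKM at E3 and at 842 to 975 FPKM in the cornea (0.25 ± 0.08, adjusted p = 0.0419). By library size alone it was not called. Of the paralogues ending in L1, RPL7L1 fell from 148 ± 6.14 to 103 ± 12.2 FPKM (-0.37 ± 0.09, adjusted p = 0.00951). RPL26L1 stood at 1410 ± 4.4 and 1378 ± 109 FPKM (adjusted p = 0.199) and RPL22L1 at 388 ± 11.2 and 358 ± 45 FPKM (adjusted p = 0.803). RPL26L1 lay above the median member in every library, and no RPL26 was among the members. The rule on names thus left a gene at the level of the members out of the set.

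Genes that build ribosomes fell while most members did not pass the test. Of 37 measured nucleolar assembly genes, 33 were lower and 0 higher in both corneal groups together, where 20.8% of all genes were lower and 20.9% higher, with a median log2 fold change of -0.84 beside 0.03 over all genes and over the members. At E5 32 and at E7 31 of the 37 were lower, beside 17.6 and 16.4% of all genes. NOP2, a methyltransferase of ribosomal RNA, stood at 83.3, 81.2 and 95.7 FPKM at E3, at 23.3, 31.1 and 45.0 FPKM at E5 and at 36.5, 41.6 and 21.8 FPKM at E7 (-1.24 ± 0.21, adjusted p = 0.0024). PWP2, part of the small subunit processome, fell from 31.3 ± 0.414 to 11.8 ± 2.57 FPKM (-1.25 ± 0.15, adjusted p = 0.000505). WDR3, of the same complex, fell from 44.1 ± 3.41 to 17.7 ± 3.48 FPKM (-1.17 ± 0.14, adjusted p = 0.000461). The number lower ran from 31 to 36 over the scalings, tools, the replicate block and the omission of E5 library 3 and E7 library 3.

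Of 19 genes of transcription by RNA polymerases I and III, which make ribosomal RNA, 11 were lower and 0 higher (median -0.50), beside the same 20.8 and 20.9% of all genes, and 8 to 14 were lower over those alternatives. The subunit POLR1D, shared by both polymerases, fell from 79.3 ± 1.63 to 32.9 ± 7.23 FPKM (-1.12 ± 0.16, adjusted p = 0.00101). POLR1A, the largest subunit of polymerase I, fell from 22.1 ± 1.13 to 10.1 ± 1.57 FPKM (-0.99 ± 0.10, adjusted p = 0.000261). Of 64 mitochondrial ribosomal proteins, 38 were lower and 2 higher (median -0.34), beside 20.8 and 20.9% of all genes, and the number lower ran from 28 to 45. MRPS35 fell from 59.7 ± 1.72 to 31.6 ± 4.92 FPKM (-0.77 ± 0.10, adjusted p = 0.00066), and MRPL43 rose from 58.9 ± 2.23 to 73.2 ± 9.01 FPKM (0.47 ± 0.10, adjusted p = 0.00764).

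Of 24 genes listed as translation initiation factors, 15 were lower and 0 higher (median -0.44), beside 20.8 and 20.9% of all genes. The number lower ran from 15 to 18. The list also holds EIF4EBP1, a repressor of initiation, which was lower at E5 (-0.45 ± 0.07, adjusted p = 0.00266) and at E7 (-0.31 ± 0.07, adjusted p = 0.0144). EIF2S1, the regulated subunit of the factor that brings the first transfer RNA, fell from 188 ± 2.4 to 113 ± 15.1 FPKM (-0.58 ± 0.08, adjusted p = 0.00116). EIF6, which keeps the subunits apart, fell from 83.2 ± 4.07 to 50.5 ± 8.84 FPKM (-0.57 ± 0.12, adjusted p = 0.00622). Of 11 elongation and nascent chain factors, EEF2 and TPT1 were higher and EIF5A2 and PABPC4 lower, beside those shares of all genes. TPT1, whose transcript also starts with a pyrimidine tract, rose from 704 ± 36.4 to 1051 ± 50.2 FPKM (0.74 ± 0.09, adjusted p = 0.000488). EEF2, which moves the ribosome along the messenger RNA, rose from 462 ± 36.3 to 519 ± 37.7 FPKM (0.33 ± 0.09, adjusted p = 0.0222). On FPKM, E7 library 1 at 448 lay within the E3 range of 421 to 490. Over the scalings, tools, the replicate block and the omission of E5 library 3 and E7 library 3, 1 to 3 of these factors were higher. From 1 to 4 of them were lower.

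Among 15 growth regulators, MYC was higher and 7 genes lower, beside 20.9 and 20.8% of all genes. MYCN, a transcription factor that drives ribosome production, stood at 53.9, 52.5 and 68.8 FPKM at E3, at 5.89, 7.05 and 15.0 FPKM at E5 and at 14.2, 14.2 and 8.52 FPKM at E7 (-2.25 ± 0.24, adjusted p = 0.000297). Its relative MYC stood at 3.43, 1.39 and 3.36 FPKM at E3 and at 3.62 to 7.81 FPKM in the cornea (1.34 ± 0.36, adjusted p = 0.0188). LIN28A, which binds RNA in cells of the early embryo, stood at 34.5, 34.7 and 50.8 FPKM at E3 and at 0.07 FPKM or less in each corneal library. Of 9 S6 kinases, RPS6KB1, a kinase that phosphorylates RPS6, fell from 16.7 ± 0.645 to 10.6 ± 0.837 FPKM (-0.50 ± 0.07, adjusted p = 0.00125), and its relative RPS6KB2 rose to 18.1 ± 0.769 FPKM from 12.4, 11.2 and 12.6 FPKM in the E3 libraries (0.75 ± 0.09, adjusted p = 0.00064).

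Cell cycle genes and markers of other cells moved beside these lists. The 21 measured cell cycle genes summed to 5793 to 6084 CPM at E3, 3876 to 4126 CPM at E5 and 3725 to 3972 CPM at E7, and 19 of them were lower, beside 20.8% of all genes. All 8 tested erythroid markers were lower in the cornea, as were 8 of 10 vascular markers, while 1 vascular marker was higher. The 10 vascular markers summed to 464 to 534 CPM at E3, 115 to 137 CPM at E5 and 69.4 to 114 CPM at E7. Among them, ERG went the other way, from 14.7 to 17.8 FPKM at E3 to 25.7 to 75.4 FPKM in the corneal libraries. Epithelial markers summed to 20.2 to 22.3 CPM at E3, to 12.8, 8.68 and 122 CPM at E5 and to 284, 148 and 14.9 CPM at E7. The part of these cells in the changes of the ribosomal protein genes and of the assembly genes was not tested.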

How the data were processed

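Tissue was frozen in Trizol, per the labels' protocols. The authors deposited expected counts, which are estimates and can be fractional, and FPKM values per entry and library, per the file headers. Bowtie2, HISAT and the build galGal5 are named, per the submitters' processing notes, while tool versions, annotation, counting program and strand use were not given in the sources used here. Of 46855 entries, 23905 matched RefSeq's gene table for GRCg7b, which is another build, so no coordinates are given. The 22950 others, with 21.5 to 23.6% of a library's counts, stayed in the library totals only.

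Expected counts were summed per gene, rounded and tested in R 4.3.3 by edgeR 4.0.16 (TMM factors, filterByExpr by group, quasi-likelihood F-test, all 9 libraries without covariates, threshold 0.05). The SE is the absolute log2 fold change over the square root of F. FPKM were summed over the entries of a gene. Out-of-step values used log2(CPM + 1). A floor of 3 counts is 0.129 to 0.304 CPM, covering counting error only. Replicates differed beyond sampling noise, with a chi-square per degree of freedom of 9.59 to 141.85. The procedure was tested on simulated data.

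Members and lists were chosen with earlier results of these data known. Members named were the called ones with the largest changes (up to 6 per direction and comparison, mean FPKM of 10 or more), the 10 most and 4 least out of step, the 5 highest and 5 lowest, and fixed landmarks; from other lists, up to 3 called genes per direction with an FPKM of 5 or more. RPL23A is named for its call against the set, after its values were seen. A few genes that these rules name are not reported here. Alternatives were RLE factors, library size alone, factors over the members, DESeq2 1.42.0, no filter, the highest entry of a gene only, limma 3.58.1 on log2(FPKM + 1), a replicate block, and libraries left out.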

Additional observations from a re-analysis of the deposited data

How the results depend on the processing

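Of 39 results for named members, each under 18 alternatives, 612 of 702 values kept their side of the threshold, 68 lost a call and 22 gained one. No value called in either fit changed sign; signs of members called in neither were not compared. RLE factors and the highest entry of a gene changed no count of members by over 1.5 times. By library size alone the counts higher and lower were 1 and 20 at E5 against E3 and 2 and 4 at E7 against E3. They were 2 and 15 for both corneal groups, with the shares over all genes given above. At E5, limma on log2(FPKM + 1) gave 1 and 21, beside 14.3% of all genes higher and 29.5% lower. It gave 2 and 5 at E7, beside 13.9 and 26.5%, and 2 and 17 for both groups, beside 16.8 and 32.1%. DESeq2 gave 4 lower at E5, 12 higher and 3 lower at E7, and 9 and 4 for both groups. No filter gave 0 lower at E5 and at E7, beside 14.1 and 13.6% of all genes. Factors over the members gave 2 lower for both groups, beside 21.1% of all genes. Without E5 library 3 and E7 library 3 there were 7 higher and 3 lower at E5, 20 higher at E7, 18 and 2 for both groups, and 1 higher at E7 against E5. The shares over all genes for DESeq2 and for this omission are given above. Leaving out single libraries gave 1 to 4 higher and 0 to 3 lower at E5, beside 12 to 20.8% and 11.2 to 19.3% of all genes. At E7 it gave 2 to 10 and 0 to 1, beside 11.2 to 19.5% and 10.5 to 18%. For both groups it gave 2 to 9 and 0 to 2, beside 13.7 to 22.4% and 14.7 to 22.5%. The corneal to E3 ratio of the summed level moved from 0.925 to 1.031 with TMM factors. The causes were not tested, and fits with libraries left out also had fewer samples. Of the 10 members most out of step, 9 or 10 were shared under each alternative.

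No pairing by replicate number was seen: deviations of same-numbered libraries from their group means correlated at -0.648 to 0.038. E5 library 3 and E7 library 3 each lay nearer to the other group, which shapes the deviations of both corneal groups and so enters every pair. The check therefore cannot decide on a pairing between E5 and E7, nor exclude one of either group with E3. With the number as a block, 0 members were lower at E5, beside 13% of all genes, and 3 higher for both groups, beside 16%. Depth limits RPL3L, with 17 counts at most in a library.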
